A study of Homo sapiens with 48 samples.

Results

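The genes described here are the proteasome subunits, regulators and assembly chaperones, taken as every gene whose symbol starts with PSM, then a letter from A to G, then a digit. The symbol rule found 48 genes, of which 47 were among the 11145 genes of the ribosome-protected fragment (RPF) table and all 48 among the 11947 genes of the total RNA table. PSMA2 was measured only in total RNA. The set held 14 core subunits (PSMA1 to PSMA7 and PSMB1 to PSMB7), 3 immunosubunits, 20 genes named as regulatory (PSMC1 to PSMC6 and PSMD1 to PSMD14), 4 activators, 1 inhibitor and the 4 chaperones PSMG1 to PSMG4. Of the 20 regulatory genes 17 encode subunits of the particle, and PSMD5, PSMD9 and PSMD10 encode chaperones that assemble its base. The other 2 genes that matched, PSMC3IP (a meiotic recombination protein) and PSME3IP1 (a protein that binds PSME3), are not proteasome subunits and were kept apart.

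The proteasome degrades proteins tagged with ubiquitin. Its core is a barrel of stacked rings, with outer rings of PSMA (alpha) subunits that gate the entrance and inner rings of PSMB (beta) subunits, of which PSMB5, PSMB6 and PSMB7 carry the proteolytic sites. PSMB8, PSMB9 and PSMB10 are interferon-inducible subunits that can take their places and favour the production of peptides for antigen presentation, while the regulatory particle uses PSMC ATPases to unfold substrates and PSMD subunits to bind them and remove ubiquitin.

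The libraries came from SW480, a human colorectal cancer line with mutant APC, in pools of selected transduced cells that carried a doxycycline (DOX)-inducible hairpin against no human gene (shCTRL), against EIF2B1 (eIF2Bα) or against EIF2B4 (eIF2Bδ). eIF2B is the exchange factor that recharges the initiation factor eIF2. Each line was kept without DOX (DMSO) or induced over 5 days with DOX at 1 µg/ml. The 4 replicates were collected in separate weeks, which gave 6 groups and 24 lysates, each sequenced as RPFs and as total cytoplasmic RNA. The comparisons ask how the synthesis of proteasome proteins changed when either eIF2B subunit was depleted.

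The deposited values are regularised log2 counts, so read depth and the counting error behind single values are unknown. They are relative within a library, and a change shared by all genes leaves no trace in them. Because whole cultures were sequenced, fewer cells with an RNA and less of it per cell cannot be told apart. Of 6 markers of this epithelial line, 5 were in both tables and VIL1 was in neither, and none of 6 markers of leukocytes, fibroblasts, endothelium or red cells was in either table. EIF2B1 fell by 0.67 ± 0.15 (SE) in total RNA after shEIF2B1 (limma adjusted p = 0.0263) and EIF2B4 fell by 0.49 ± 0.14 after shEIF2B4 (adjusted p = 0.0634), both on the log2 scale. Library means in RPFs were 6.99 to 7.02 in the shEIF2B4 line against 7.12 to 7.18 in the shEIF2B1 line and 7.12 to 7.14 in shCTRL, so levels are compared within a line, or after each library was centred on its median.

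Coding sequences are shown for members that bear the main RPF result, because the members separated by base composition. The first 150 bases of 5 coding sequences are printed from GENCODE transcripts on GRCh38, with capitals marking G or C at the third position of a codon. They run 5′ to 3′ from the start codon annotated in the transcript chosen for each gene. For PSMA4 that transcript has a coding sequence of 570 nt. Other transcripts were not examined, so its printed start was not shown to be that of the full subunit. PSMA3 (chr14:58244831-58272012, + strand), PSMA4 (chr15:78540405-78552419, + strand) and PSMD14 (chr2:161308038-161411717, + strand) were lower in RPFs after shEIF2B1. PSMB7 (chr9:124353466-124415444, − strand) is a constitutive proteolytic subunit that was not called, and PSMB10 (chr16:67934502-67937087, − strand) is its immunosubunit counterpart, which was higher.
PSMA3: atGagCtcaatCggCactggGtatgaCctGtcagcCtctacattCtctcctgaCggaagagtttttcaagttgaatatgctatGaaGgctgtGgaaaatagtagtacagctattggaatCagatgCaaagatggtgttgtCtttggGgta
PSMA4: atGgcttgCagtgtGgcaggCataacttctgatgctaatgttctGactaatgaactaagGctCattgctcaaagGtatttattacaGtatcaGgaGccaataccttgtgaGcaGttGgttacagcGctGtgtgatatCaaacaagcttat
PSMD14: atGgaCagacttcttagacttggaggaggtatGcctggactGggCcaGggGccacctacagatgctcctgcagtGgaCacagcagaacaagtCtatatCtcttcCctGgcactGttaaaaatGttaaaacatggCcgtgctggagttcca
PSMB7: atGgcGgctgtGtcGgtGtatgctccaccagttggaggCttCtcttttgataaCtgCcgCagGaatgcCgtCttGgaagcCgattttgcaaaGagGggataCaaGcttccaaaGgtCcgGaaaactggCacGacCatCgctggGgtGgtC
PSMB10: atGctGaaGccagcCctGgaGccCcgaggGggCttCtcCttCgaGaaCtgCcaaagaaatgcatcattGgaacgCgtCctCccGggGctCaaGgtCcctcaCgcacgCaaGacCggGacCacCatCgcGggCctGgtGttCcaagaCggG
Of these 50 codons, 17 ended in G or C in PSMA3, 17 in PSMA4 and 16 in PSMD14, against 29 in PSMB7 and 39 in PSMB10.

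Without DOX, the shCTRL line showed a wide spread of levels among subunits that are built into the same particle. Levels are given as the log2 RPF value minus log2 of the coding length in kb, so they can be compared between genes. The 7 beta subunits had a median of 11.73 and ran from 10.74 (PSMB5) to 12.18 (PSMB3), a range of 1.44, whereas the 6 measured alpha subunits had a median of 10.71 and a range of 3.22, from PSMA4 at 9.25 ± 0.70 (SD, n = 4) to PSMA7 at 12.47 ± 0.10. The 14 PSMD genes also spread widely, from PSMD1 at 8.34 to PSMD8 at 11.54. The ATPases other than PSMC2 lay between 9.07 (PSMC6) and 10.47 (PSMC3).

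The 3 immunosubunits were low on the same RPF scale, at 8.64 ± 0.08 (SD, n = 4) for PSMB8, 8.89 ± 0.29 for PSMB10 and 9.05 ± 0.33 for PSMB9, below each of the 13 measured core subunits. The chaperones PSMG2, PSMG3, PSMG1 and PSMG4 lay between 8.26 and 9.93, and PSME4, a large activator of the core, was the lowest proteasome gene at 6.20 ± 0.31. PSMC2 is left out of this order, since the transcript chosen for it has an incomplete coding sequence of 391 nt. Other coding sequences were kept because they hold whole codons, which does not show that they cover the full protein. The order was computed on the transcript chosen per gene, and other transcripts were not tried. That of PSMA4 carries a coding sequence of 570 nt. In total RNA per kb of transcript, PSMA4 stood among the highest members at 11.01 ± 0.15. What set its lower place in RPFs was not tested. Also in total RNA, PSMA2 was highest at 12.55 ± 0.19 and the immunosubunits were at 6.64 to 7.30.

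**Figure D1:**
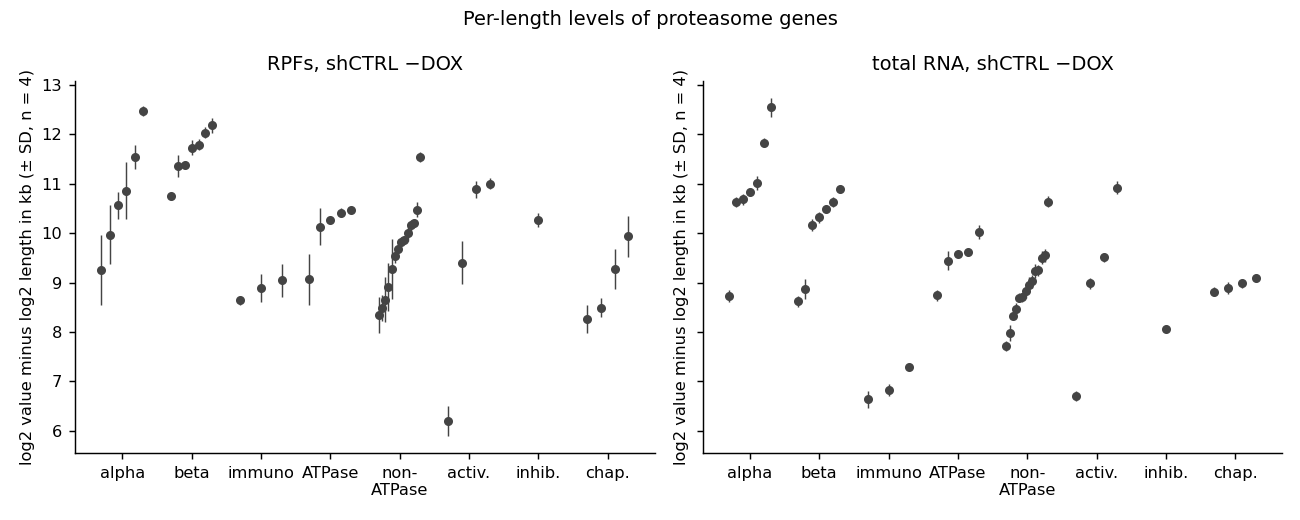
Per-length levels of each proteasome gene in uninduced shCTRL cells, as log2 value minus log2 length in kb (vertical axis), by role (horizontal axis), for RPFs over the coding length on the left and total RNA over the transcript length on the right. Points are genes, bars the SD over 4 replicates, and PSMC2 is not drawn. Immunosubunits lie below every core subunit in both panels.

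After EIF2B1 knockdown, RPFs on the immunosubunits rose while those on a part of the alpha ring, the regulatory particle and the chaperones fell. The response is the DOX change of the knockdown line minus the DOX change of shCTRL, fitted with limma on 16 lysates with the week as a block. A gene was called when its Benjamini-Hochberg adjusted p, taken across the whole table, was below 0.1. Of the 47 members, 4 were higher (PSMB8, PSMB9, PSMB10 and PSME1) and 12 were lower (PSMA3, PSMA4, PSMA6, PSMC1, PSMC6, PSMD1, PSMD6, PSMD14, PSME3, PSMG1, PSMG2 and PSME3IP1), 16 in all. Over all genes 27.3% were called, 12% higher and 15.3% lower, so the share of members called was not far from that of the table. The median response was −0.14 over the members and −0.01 over all genes tested.

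The core subunits called were all in the alpha ring, though each ring holds few subunits and the counts were not tested against each other. In the alpha ring, 3 of 6 measured subunits fell, where 15.3% of all genes did, and the median response was −0.49. Of the 7 beta subunits 0 were called, where 27.3% of all genes were, with a median of 0.05 and a range of −0.14 to 0.15. The mean over alpha subunits minus the mean over beta subunits was −0.54, −0.46, −0.47 and −0.40 in the 4 weeks, a mean of −0.47 ± 0.06 (SD, n = 4). This contrast was chosen after its values were seen and is given with no test. In total RNA the same contrast was 0.01 ± 0.13, and in translational efficiency (TE, the log2 RPF value of a lysate minus its log2 total RNA value) it was −0.50 ± 0.13. On induction of shCTRL it was 0.10 ± 0.10 in RPFs.

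Core and regulatory subunits did not separate beyond the spread between weeks. The mean over 13 core subunits minus the mean over the 20 PSMC and PSMD genes, both as RPF responses to shEIF2B1, was 0.17, 0.02, −0.13 and 0.19 in the 4 weeks, a mean of 0.06 ± 0.15. The core mean was −0.18 ± 0.16 and the regulatory mean −0.24 ± 0.19. The difference was −0.04 ± 0.11 in total RNA and 0.10 ± 0.10 in TE. After shEIF2B4 it was −0.04 ± 0.06 in RPFs, 0.04 ± 0.14 in total RNA and −0.08 ± 0.12 in TE. In each of these 6 cases the mean was no larger than the spread between weeks. With the 3 base chaperones left out, an alternative added after the data were seen, the RPF difference was 0.08 ± 0.17 after shEIF2B1 and −0.03 ± 0.06 after shEIF2B4.

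**Figure D2:**
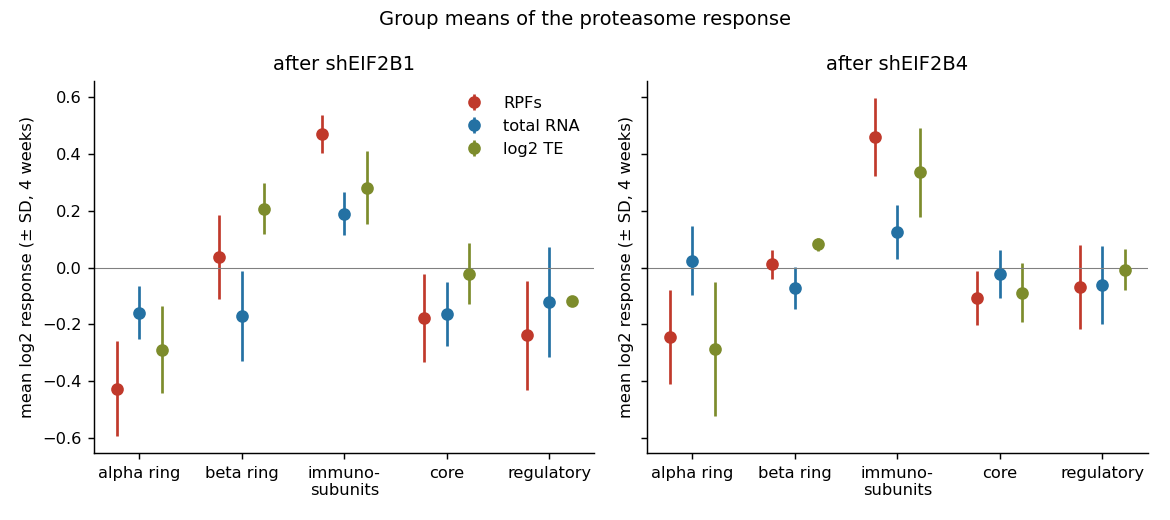
Mean log2 response (vertical axis) of the alpha ring, beta ring, immunosubunits, whole core and regulatory particle (horizontal axis) after shEIF2B1 (left) and shEIF2B4 (right). Points are means and bars SDs over 4 weeks, for RPFs, total RNA and log2 TE. In RPFs after shEIF2B1 the alpha ring lies at −0.43 and the immunosubunits at 0.47, with the beta ring at 0.04.

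Among the alpha subunits, PSMA4 had the lowest p. In uninduced shEIF2B1 cells its log2 RPF values in replicates 1 to 4 were 8.55, 9.88, 8.67 and 9.81, and with DOX they were 8.30, 9.05, 8.12 and 9.29. In shCTRL they were 7.81, 8.92, 7.88 and 9.17 without DOX and 8.17, 8.76, 8.18 and 9.29 with it. The groups overlapped, since replicates 2 and 4 lay about 1 log2 unit above replicates 1 and 3 in both, but every shEIF2B1 replicate fell. The response was −0.69 ± 0.15 (SE, adjusted p = 0.00428), and it was negative in 4 of 4 weeks.

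PSMA3 read 10.74, 11.42, 10.66 and 11.56 in uninduced shEIF2B1 replicates and 9.92, 10.85, 9.99 and 11.19 with DOX, while in shCTRL it read 9.87, 10.85, 10.09 and 11.07 and then 10.13, 10.46, 10.40 and 11.25. All shEIF2B1 replicates fell, and 3 of 4 shCTRL replicates rose. The response was −0.70 ± 0.16 (adjusted p = 0.00636), with weekly values of −1.08, −0.18, −0.99 and −0.55. PSMA6 responded by −0.72 ± 0.17 (adjusted p = 0.00747), from 9.85, 10.82, 9.68 and 10.74 to 9.11, 9.86, 8.97 and 10.14 in the shEIF2B1 line and from 8.88, 9.89, 9.19 and 10.16 to 9.22, 9.42, 9.16 and 10.22 in shCTRL. All shEIF2B1 replicates of PSMA6 were lower with DOX, while shCTRL was mixed. PSMA1 and PSMA5 had responses of −0.30 (adjusted p = 0.129) and −0.19 (adjusted p = 0.277), and PSMA7 one of 0.04.

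Of the 17 subunits of the regulatory particle, 5 fell and 0 rose, where 15.3% of all genes fell and 12% rose. Their median was −0.21, and the base chaperones were not called (5 of 20 genes and a median of −0.19 with them). PSMD6, a subunit of the lid, had the largest response of all members at −0.75 ± 0.16 (adjusted p = 0.00428): it went from 9.32, 10.21, 9.30 and 10.15 to 8.64, 9.42, 8.49 and 9.59 in the shEIF2B1 line, against 8.64, 9.48, 8.81 and 9.60 and then 8.85, 9.07, 8.92 and 9.84 in shCTRL. The weekly responses of PSMD6 were −0.90, −0.37, −0.92 and −0.81.

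PSMD14, the metalloprotease that cuts ubiquitin chains from substrates, read 9.30, 10.48, 9.27 and 10.40 in uninduced shEIF2B1 replicates and 8.69, 9.58, 8.89 and 10.03 with DOX. In shCTRL it read 8.54, 9.57, 8.77 and 9.79 without and 8.88, 9.35, 8.91 and 9.99 with DOX. Every shEIF2B1 replicate fell and 3 of 4 shCTRL replicates rose, for a response of −0.68 ± 0.15 (adjusted p = 0.00557). Of the 6 ATPases, PSMC6 (−0.52 ± 0.18, adjusted p = 0.051) and PSMC1 (−0.46 ± 0.15, adjusted p = 0.0348) fell. PSMC3, PSMC4 and PSMC5 had values of 0.07, 0.01 and 0.03. PSMD1, the largest scaffold subunit, was the last of the 5 at −0.42 ± 0.17 (adjusted p = 0.0905).

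The lid subunit PSMD7 and the base chaperones PSMD5, PSMD9 and PSMD10 were not called in RPFs after shEIF2B1, with responses of −0.13, −0.17, −0.09 and −0.18. Of the chaperones that build the alpha ring, PSMG2 fell by 0.53 ± 0.15 on the log2 scale (adjusted p = 0.0167), from 8.18, 8.84, 8.13 and 8.83 to 7.67, 8.41, 7.40 and 8.58 in the shEIF2B1 line, and in shCTRL it read 7.63, 8.13, 7.76 and 8.18 and then 7.57, 8.21, 7.76 and 8.38. Its partner PSMG1 fell by 0.38 ± 0.14 (adjusted p = 0.0641), while PSMG3 and PSMG4, the other pair, had responses of 0.20 and 0.21 that were not called.

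The immunosubunits rose in every week. PSMB10 read 8.44, 7.94, 8.42 and 7.80 in uninduced shEIF2B1 replicates and 8.97, 8.60, 8.77 and 8.04 with DOX, and in shCTRL 8.80, 8.45, 8.88 and 8.28 and then 8.82, 8.41, 8.72 and 8.12. All 4 shEIF2B1 replicates rose while shCTRL moved little, and the response was 0.53 ± 0.12 (adjusted p = 0.00659).

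PSMB9 went from 8.49, 8.06, 8.52 and 7.80 to 9.17, 9.03, 9.39 and 8.72 in the shEIF2B1 line, so that its groups did not overlap. It also rose in all 4 shCTRL replicates, from 8.70, 8.39, 8.67 and 7.99 to 8.72, 8.88, 9.07 and 8.41. The shCTRL change alone was 0.33 ± 0.10 (adjusted p = 0.081), and the response beyond it was 0.53 ± 0.13 (adjusted p = 0.00909). PSMB8 read 8.30, 8.19, 8.37 and 8.12 without and 8.69, 8.77, 8.90 and 8.36 with DOX in the shEIF2B1 line, against 8.48, 8.32, 8.37 and 8.29 and then 8.47, 8.58, 8.46 and 8.31 in shCTRL. Its response was 0.35 ± 0.13 (adjusted p = 0.06), and this call was lost without replicate 1, 3 or 4.

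The constitutive proteolytic subunits stayed close to 0. PSMB5, PSMB6 and PSMB7, whose places PSMB8, PSMB9 and PSMB10 can take, had RPF responses of 0.05, 0.12 and −0.03 with SEs of 0.11, 0.11 and 0.12. In uninduced shEIF2B1 replicates PSMB7 read 11.11, 11.08, 11.14 and 11.07, and with DOX 11.08, 10.98, 11.01 and 10.90. PSMB5 read 10.34, 10.11, 10.28 and 10.14 and then 10.24, 9.99, 10.10 and 9.90, and PSMB6 read 11.24, 10.82, 11.29 and 10.92 and then 11.28, 10.93, 11.07 and 10.90. PSMB5 and PSMB7 were slightly lower with DOX in all 4 replicates and PSMB6 was mixed. In shCTRL, PSMB7 read 10.99, 11.16, 11.13 and 11.15 without and 11.08, 10.80, 11.13 and 11.09 with DOX. PSMB5 read 10.41, 10.34, 10.49 and 10.37 and then 10.38, 9.93, 10.31 and 10.14, and PSMB6 read 11.43, 11.15, 11.33 and 11.10 and then 11.29, 10.93, 11.24 and 11.00. Both were thus lower with DOX in all 4 shCTRL replicates. The mean of the immunosubunits minus the mean of the 7 beta subunits was 0.54, 0.26, 0.58 and 0.35 in the 4 weeks.

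The activators split as well. PSME1, a subunit of the interferon-inducible activator, rose by 0.31 ± 0.12 (adjusted p = 0.0681), and its partner PSME2 had a response of 0.07. PSME3, which forms a nuclear activator, fell by 0.49 ± 0.12 on the log2 scale (adjusted p = 0.0104), and PSME3IP1, which binds it, fell by 0.65 ± 0.16 (adjusted p = 0.0111). PSME4 had a response of −0.33 (adjusted p = 0.141) and the inhibitor PSMF1 one of 0.21 (adjusted p = 0.175). The call on PSME1 was lost without replicate 1, 2 or 4, those on PSMC6, PSMD1 and PSMG1 without 1, 3 or 4, and that on PSMC1 without 1 or 3.

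**Figure D3:**
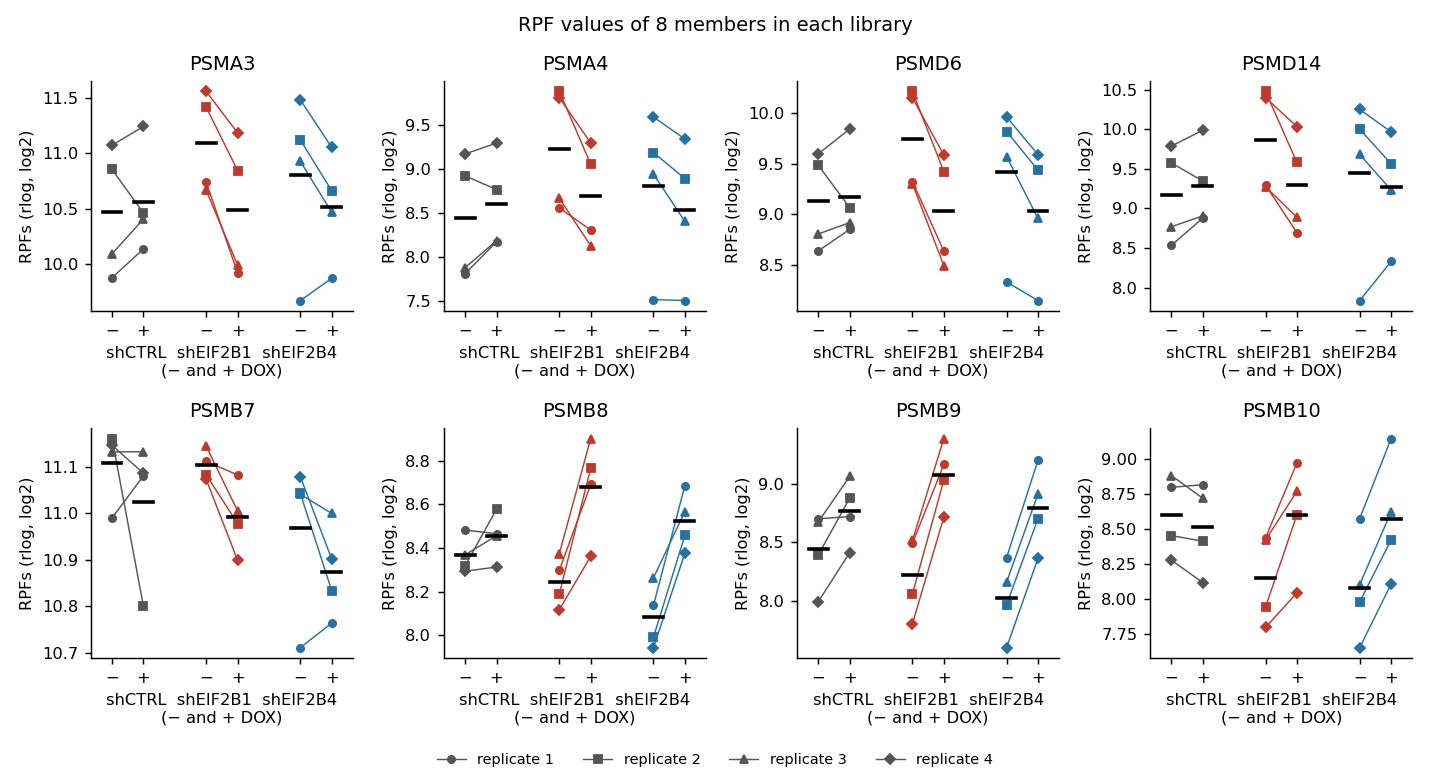
RPF values (regularised log2, vertical axis) of 8 members in each library, without (−) and with (+) DOX in the shCTRL, shEIF2B1 and shEIF2B4 lines. Symbols mark replicates 1 to 4, thin lines join the lysates of a week, and black bars are group means. PSMA3, PSMA4, PSMD6 and PSMD14 fall in all 4 shEIF2B1 replicates, PSMB8, PSMB9 and PSMB10 rise in all 4, and in the first 4 genes replicates 2 and 4 lie above 1 and 3 in every group.

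Fewer members were called in total RNA, though their median lay about as far below that of all genes. In total RNA after shEIF2B1, 0 of 48 members were called by limma, while 3.47% of all genes were. An unadjusted p under 0.05 was found for 5 members and for 1825 of 11947 genes. The median response was −0.11 over the members and −0.00 over all genes, 11 of 48 members lay above 0, and of the 14 core subunits 1 did. The lowest p-values were those of PSMB8 (0.32 ± 0.11, adjusted p = 0.144), PSMB5 (−0.30 ± 0.10, adjusted p = 0.166) and PSMA2 (−0.29 ± 0.12, adjusted p = 0.243). PSMB8 RNA read 7.22, 7.47, 7.41 and 7.46 in uninduced shEIF2B1 replicates and 7.63, 7.78, 7.88 and 7.59 with DOX, so these 2 groups did not overlap, and in shCTRL it read 7.40, 7.52, 7.42 and 7.52 and then 7.37, 7.60, 7.52 and 7.42. PSMB5 RNA went from 9.30, 9.33, 9.15 and 9.49 to 8.86, 8.86, 8.89 and 8.97 in the shEIF2B1 line and from 9.06, 9.34, 9.09 and 9.48 to 9.13, 9.12, 8.97 and 9.26 in shCTRL. PSMA2 RNA went from 12.13, 12.11, 12.08 and 12.15 to 11.88, 11.60, 11.71 and 11.95, against 12.00, 12.05, 11.74 and 12.19 and then 12.10, 11.83, 11.74 and 12.14 in shCTRL. For both genes the shEIF2B1 groups did not overlap and those of shCTRL did.

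Of the 7 beta subunits, all 7 had a total RNA response below 0 (median −0.16), and the RNA responses of PSMA4, PSMA3 and PSMD14 were −0.17, 0.14 and 0.00. In TE after shEIF2B1, 6 of 47 members were called lower and 0 higher, against 4.13% of all genes lower. The 6 were PSMA3 (−0.84 ± 0.16, adjusted p = 0.0184), PSMD14 (−0.68 ± 0.15, adjusted p = 0.0315), PSMD6 (−0.55 ± 0.15, adjusted p = 0.0565), PSME3IP1, PSMA4 and PSMA6. All 7 beta subunits had TE responses above 0, from 0.03 to 0.40, and 0 of them were called. With each library centred on its median, 7 members were called (7.01% of all genes), 5 lower and 2 higher, the higher ones being PSMB3 (0.44 ± 0.14, adjusted p = 0.089) and PSMB10 (0.45 ± 0.15, adjusted p = 0.0967). PSMA6 was then not called. TE of PSMA3 in the shEIF2B1 line was 0.28, 0.81, 0.28 and 0.95 without and −0.67, 0.73, −0.53 and 0.60 with DOX, and in shCTRL −0.58, 0.26, −0.52 and 0.38 and then −0.38, 0.54, −0.10 and 0.62. TE of PSMD14 went from −1.20, −0.15, −1.10 and −0.11 to −1.72, −0.65, −1.49 and −0.50, and in shCTRL from −1.86, −0.94, −1.56 and −0.85 to −1.62, −0.87, −1.28 and −0.54. Both genes were lower with DOX in all 4 shEIF2B1 replicates and higher in all 4 of shCTRL, and the groups overlapped. TE of PSMD6 went from −0.27, 0.51, −0.08 and 0.53 to −0.60, 0.23, −0.73 and 0.30 in the shEIF2B1 line and from −0.69, −0.02, −0.59 and −0.07 to −0.60, −0.09, −0.33 and 0.37 in shCTRL. With a week left out, 0 members were called in TE without replicate 1 or 3, where 0 and 43 of 10836 genes were called. In TE, 1 member was called without replicate 4 (0.185% of all genes) and 9 without replicate 2 (12.6% of all genes).

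EIF2B4 knockdown gave 1 call among the members in RPFs, near the share of all genes called higher. In RPFs 1 of 47 members was called, PSMB10, which was higher, and 1.88% of all genes were called higher. PSMB10 read 8.58, 7.98, 8.10 and 7.65 without and 9.15, 8.42, 8.62 and 8.11 with DOX in the shEIF2B4 line, for a response of 0.58 ± 0.15 (adjusted p = 0.0607) with all 4 replicates higher. This call was lost without replicate 2, 3 or 4, where 77, 66 and 43 of 11145 genes were called. Without replicate 1 there were 5 calls where 14.5% of all genes were called. PSMB9 (0.44 ± 0.15, adjusted p = 0.167) went from 8.37, 7.96, 8.16 and 7.60 to 9.20, 8.70, 8.92 and 8.36, and PSMB8 (0.35 ± 0.13, adjusted p = 0.201) from 8.14, 7.99, 8.26 and 7.94 to 8.69, 8.46, 8.57 and 8.38.

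PSMG2 had the next lowest p (−0.32 ± 0.15, adjusted p = 0.326), from 7.63, 8.57, 8.29 and 8.81 to 7.39, 8.33, 8.00 and 8.52. The RPF responses of PSMA3, PSMA4, PSMA6 and PSMD6 were −0.38, −0.43, −0.35 and −0.43, with SEs of 0.21 to 0.24, and that of PSMD14 was −0.28 ± 0.29. None of these 5 was called. PSMA4 read 7.51, 9.18, 8.94 and 9.59 without and 7.50, 8.89, 8.40 and 9.34 with DOX in the shEIF2B4 line, where replicate 1 lay well below the other replicates in both states. The alpha minus beta contrast was −0.26 ± 0.14 (SD, n = 4) and negative in 4 of 4 weeks. Both knockdowns were corrected with the same shCTRL lysates, so their responses are not independent.

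In total RNA after shEIF2B4, 0 of 48 members were called by limma, while 5.4% of all genes were. At an unadjusted p under 0.05 there were 0 members and 2057 of 11947 genes. The lowest p-values were those of PSMD7 (−0.22 ± 0.11), PSMD5 (0.19 ± 0.10) and PSMD9 (−0.23 ± 0.13). PSMD7 RNA went from 9.52, 9.89, 9.88 and 9.85 to 9.43, 9.56, 9.48 and 9.55 in the shEIF2B4 line and was lower with DOX in all 4 replicates. In shCTRL it read 9.59, 9.75, 9.79 and 9.92 and then 9.75, 9.61, 9.57 and 9.86. PSMD9 RNA went from 8.74, 8.84, 9.09 and 8.76 to 8.77, 8.62, 8.44 and 8.54, and PSMD5 RNA from 10.23, 10.28, 10.00 and 10.33 to 10.24, 10.12, 10.16 and 10.28. In shCTRL, PSMD9 RNA read 8.57, 8.80, 8.53 and 8.51 and then 8.53, 8.55, 8.58 and 8.62, and PSMD5 RNA read 10.26, 10.25, 10.09 and 10.39 and then 10.24, 9.94, 9.84 and 10.19.

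In TE after shEIF2B4, 0 of 47 members were called, where 0.0923% of all genes were. An unadjusted p under 0.05 was found for 11 members and for 1848 of 10836 genes. PSMA3 (−0.55 ± 0.19), PSMA4 (−0.57 ± 0.21) and PSMC6 (−0.40 ± 0.16) had the lowest p, with adjusted p of 0.188, 0.216 and 0.241, and each was negative in 4 of 4 weeks. TE of PSMC6 went from −1.74, −0.75, −0.76 and −0.52 to −1.76, −0.95, −1.13 and −0.68 in the shEIF2B4 line and from −1.66, −0.96, −1.37 and −0.92 to −1.58, −1.02, −0.92 and −0.53 in shCTRL. TE of PSMA4 went from −3.24, −1.86, −1.92 and −1.50 to −3.39, −1.96, −2.51 and −1.63 and in shCTRL from −3.11, −2.14, −3.06 and −2.08 to −2.91, −1.93, −2.48 and −1.74. TE of PSMA3 went from −0.64, 0.44, 0.44 and 0.95 to −0.65, 0.37, −0.02 and 0.42 in the shEIF2B4 line. All 3 genes were lower with DOX in every shEIF2B4 replicate. Without replicate 1, 7 members were called where 13.1% of all genes were. Tested directly between the knockdowns, 0 members differed in RPFs or in total RNA, and 0.00897% and 0.1% of all genes did. At an unadjusted p under 0.05 there were 1 member and 713 of 11145 genes in RPFs. In total RNA there were 6 members and 1528 of 11947 genes. The members called after shEIF2B1 and not after shEIF2B4 were thus not shown to differ between them.

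Induction of shCTRL itself gave few calls but a shift of the median member. The median change was −0.11 in RPFs, against 0.01 over all genes, with 14 of 47 members above 0, and −0.13 in total RNA, against −0.00, with 6 of 48 above 0. In all, 11 members in RPFs and 10 in total RNA had an unadjusted p under 0.05. Over all genes, 2683 of 11145 in RPFs and 2401 of 11947 in total RNA did. In RPFs 1 of 47 was called, PSMB9, which was higher, where 5.23% of all genes were called higher. PSMD7 (−0.24 ± 0.09, adjusted p = 0.145) read 9.98, 10.11, 10.12 and 10.26 without and 9.94, 9.73, 9.75 and 10.09 with DOX, and PSMG4 (−0.24 ± 0.10, adjusted p = 0.167) read 8.85, 8.20, 8.84 and 8.09 and then 8.40, 7.99, 8.52 and 8.11. In total RNA 1 of 48 was called, PSMD12, a lid subunit, which fell by 0.28 ± 0.08 on the log2 scale (adjusted p = 0.0962), where 2.18% of all genes were called lower. Both calls were lost without replicate 2, 3 or 4. Over all genes, 4, 3 and 4 of 11145 were then called in RPFs and 166, 3 and 12 of 11947 in total RNA. Without replicate 1, 15 members were called in RPFs on shCTRL induction and 25 of 48 in total RNA, all lower but PSMB9, where 31.6% and 20.5% of all genes were called.

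The RPF responses ran with the composition of the coding sequence. Over 47 members, the response to shEIF2B1 had a Pearson's r of 0.74 and a Spearman's rho of 0.78 with the percentage of codons that end in G or C (GC3). With the GC content of the whole coding sequence, r was 0.84 and rho 0.85. The relation was thus not shown to be specific to codon endings. These values are descriptions across genes that share their libraries. Of the 17 members with a GC3 below 50%, 10 fell and 0 rose. Of the 19 between 50% and 65%, 2 fell and 2 rose, and of the 11 from 65% up, 0 fell and 2 rose. The bands were not counted over all genes, so the pattern was not shown to be particular to the members. The study reports a relation of the TE change with coding GC content over its genes after both knockdowns. The median GC3 was 40.0% for the 12 members called lower, 63.0% for the 4 called higher and 59.7% for the 31 not called, and 59.7% over all genes of the RPF table with a coding sequence.

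The rings differ in the same feature. The alpha ring had a median GC3 of 35.3%, with PSMA1, PSMA3, PSMA4 and PSMA6 at 30.8%, 31.8%, 35.3% and 37.4% and PSMA7 at 62.1%, and the beta ring had a median of 59.4%, from 49.8% (PSMB1) to 74.2% (PSMB3). PSMB10 had 76.2% and PSMB9 56.6%. For shEIF2B4, r with GC3 was 0.71 and rho 0.80 in RPFs over the same 47 members. With whole coding GC content they were 0.83 and 0.84. For the shCTRL change, which is subtracted from both responses, r with GC3 was −0.48 and rho −0.54. With whole coding GC content these were −0.37 and −0.47. In total RNA r with GC3 was 0.38 after shEIF2B1 and −0.39 after shEIF2B4 over 48 members. For coding length, r with the RPF response was −0.19 and −0.22.

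Most members that fell after shEIF2B1 started from raised levels in that line. With libraries centred on their medians, uninduced shEIF2B1 cells had 14 members higher and 10 lower in RPFs than uninduced shCTRL cells (limma, adjusted p under 0.1), where 20% and 28.1% of all genes were higher and lower. PSMA4 was 0.72 ± 0.10 (SE) higher (adjusted p = 0.00033), PSMA6 0.68 ± 0.12 higher and PSMD14 0.63 ± 0.10 higher, and PSMB10 differed by −0.52 ± 0.09 (adjusted p = 0.000587). The beta subunits PSMB2 to PSMB6 were also lower there, with differences of −0.22 to −0.25. The 14 raised members included 11 of the 12 that fell on induction. How often genes outside the set that fell had also started higher was not counted.

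With DOX in both lines, 3 members differed in RPFs where 10.6% of all genes did: PSMB9 (0.30 ± 0.09, adjusted p = 0.0608) and PSME1 (0.24 ± 0.09, adjusted p = 0.0964) were higher in shEIF2B1 cells and PSMD3 lower (−0.34 ± 0.11, adjusted p = 0.0707). PSMA4, PSMA6, PSMD14 and PSMB10 then differed by 0.08, 0.01, 0.01 and 0.07. In TE without DOX, 16 members differed where 35.2% of all genes did, and in total RNA 0 of 48 did, where 0.00837% of all genes did. These differences are built from the same libraries as the response, so they are a description of it and no independent test.

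In the shEIF2B4 line, 8 members were apart from shCTRL without DOX (13% of all genes) and 0 with DOX (8.6% of all genes). Higher without DOX were PSMA3, PSMA4, PSMA6, PSMG1, PSMG2 and PSME3IP1, and lower were PSMB9 and PSMB10. What set the uninduced levels was not tested.

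The weeks differed in the same members too. In RPFs, both of replicates 2 and 4 lay above both of replicates 1 and 3 in 5 or 6 of the 6 groups for 14 members, among them 10 of the 12 that fell after shEIF2B1, and below them for 8 members, among them PSMB9, PSMB10 and the beta subunits PSMB2 to PSMB6. The mean gap (replicates 2 and 4 minus 1 and 3) was 1.09 for PSMA4, 1.05 for PSMD14 and −0.54 for PSMB10. Its median was 0.70 over the 12 members that fell. Neither the order nor the gap was computed over all genes, so they were not shown to be particular to the members. In total RNA no member showed such an order in 5 groups, and the gaps ran from −0.08 to 0.19. Without the week as a block, 0 members were called in RPFs after either knockdown, with 0.449% of all genes called after shEIF2B1 and 0.323% after shEIF2B4. At an unadjusted p under 0.05 there were then 0 members and 867 of 11145 genes after shEIF2B1. After shEIF2B4 there were 1 member and 491 genes.

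When each library's trend on coding GC content was removed, 5 members were called in RPFs after shEIF2B1, near the 8.09% of all genes called: PSMB9 (0.44 ± 0.12, adjusted p = 0.0491) and PSME1 (0.36 ± 0.11, adjusted p = 0.0752) were higher, and PSMD6 (−0.53 ± 0.14, adjusted p = 0.0401), PSMD14 (−0.37 ± 0.12, adjusted p = 0.0829) and PSME3IP1 (−0.53 ± 0.16, adjusted p = 0.0665) lower. PSMA3, PSMA4 and PSMB10 had −0.33, −0.31 and 0.29 under this correction and were not called. In TE 0 members were then called, where 0.19% of all genes were. An unadjusted p under 0.05 was found for 7 members and for 1124 of 10548 genes.

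**Figure D4:**
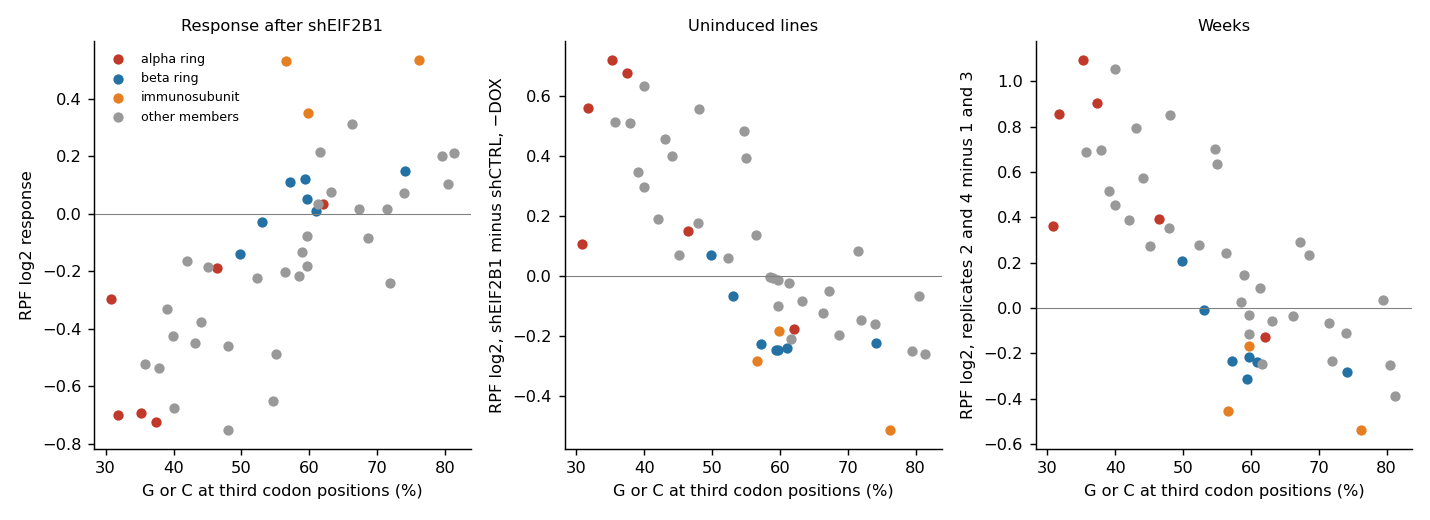
RPF differences of the 47 members (vertical axes, log2) against the percentage of codons ending in G or C (horizontal axes): the response to shEIF2B1 (left), uninduced shEIF2B1 minus uninduced shCTRL on centred libraries (middle) and replicates 2 and 4 minus 1 and 3 averaged over 6 groups (right). Points are genes, coloured by ring. The response rises with GC3 (r = 0.74), and the other 2 differences run the opposite way (r = −0.78 for each).

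Around the proteasome, genes from 3 lists were examined for the RPF response to shEIF2B1. Of 11 further subunits and associated factors, 4 fell and 0 rose, where 15.3% of all genes fell and 12% rose: POMP (−0.72 ± 0.18, adjusted p = 0.0111), the chaperone that matures the core, UCHL5 (−0.81 ± 0.19, adjusted p = 0.0066), a deubiquitinase of the regulatory particle, AKIRIN2, which escorts proteasomes into the nucleus, and TXNL1. Of 6 genes around NFE2L1, the transcription factor that raises proteasome gene expression when proteolysis is impaired, NFE2L1 rose by 0.53 ± 0.11 (adjusted p = 0.00462) and VCP, the ATPase that extracts it from the membrane, fell by 0.67 ± 0.20 (adjusted p = 0.0257). Among the ubiquitin and shuttle genes, RAD23B, UBA6 and UBQLN1 fell. In total RNA after shEIF2B1, and in RPFs and total RNA after shEIF2B4, 0 genes of these 3 lists were called. The total RNA responses to shEIF2B1 were 0.45 ± 0.16 for NFE2L1 (limma adjusted p = 0.159) and −0.51 ± 0.18 for VCP (adjusted p = 0.182). Their TE responses were 0.07 ± 0.16 and −0.16 ± 0.14, and neither was called. Of the 11 further subunits and associated factors, 2 were called lower in TE after shEIF2B1 and 0 higher, where 4.13% of all genes were lower. These were UCHL5 (−0.87 ± 0.20, limma adjusted p = 0.0324) and AKIRIN2 (−0.48 ± 0.14, adjusted p = 0.0685).

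Promoters were searched on both strands, 250 bases before to 50 after the start sites of RefSeq (GRCh38.p14), for TGACNNNGC, the core of the antioxidant response element that NFE2L1 binds, and for CCAAT. Of 46 complex members, 40 had an entry (not PSMA7, PSMB1, PSMB6, PSMB7, PSMD4 or PSMG3). TGACNNNGC was found for 15 of 40 members (37.5%) against 16.1% of all genes with a promoter in the table, and CCAAT for 19 of 40 (47.5%) against 39.7%. Members with TGACNNNGC included PSMA4, PSMD1, PSMG1 and PSMG2, which fell in RPFs after shEIF2B1, and PSMB9 and PSME1, which rose. A match describes letters in a window and is no evidence of binding.

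Some members share sequence or position with other genes. PSMC1 has 13 pseudogenes named after it in the annotation, PSMA6 4 while PSMA2 and PSMD10 have 3 each, and reads were aligned to protein-coding transcripts only. PSMB8 and PSMB9 lie on opposite strands of chromosome 6 and overlap by 568 bases, and PSMB9 also overlaps TAP1 by 8770 bases. Whether reads of such copies or neighbours entered these counts was not tested.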

How the data were processed

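The 2 deposited tables were used, with regularised log2 (rlog) values of 24 RPF and 24 total RNA libraries. The authors' processing, per the labels and the study's methods, trimmed reads with cutadapt 1.18, aligned them with Bowtie2 to protein-coding transcripts of GENCODE release 38, counted RPFs of 28 to 33 nt on coding sequences, quantified total RNA with RSEM, kept the most expressed transcript per gene and deposited log2 values from DESeq2's rlog. Replicate 3 joins 2 runs. Read counts and library totals were not used here, so the depth is unknown, and whether the 3 lines were transformed together is not given in the sources used here.

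Members, lists and comparisons were chosen with earlier results of these data known. From the log2 values, limma 3.58.1 (R 4.3.3, lmFit and eBayes with a trend) gave the interaction of line and DOX on 16 lysates with replicate as a block, with Benjamini-Hochberg adjustment over all genes and calls below 0.1. TE was log2 RPF minus log2 total RNA per lysate. The fit was tested on simulated data. Replicates were separate weeks, as the study's methods state, and samples of the same number deviated together (r over 0.1) in 52 of 60 pairs in RPFs, 37 of 60 in total RNA and 55 of 60 in TE. Coding sequences came from GENCODE release 29, matched by transcript identifier without version, for 97.3% of RPF genes and all 48 members. Genes given per replicate, in the lines of the comparison that chose them, were those with the lowest p (6 in RPFs after shEIF2B1, 4 in RPFs after shEIF2B4, 3 each in total RNA and TE after each knockdown and in RPFs on shCTRL induction) and PSMB5 to PSMB10, with further calls named. The comparisons between lines at one DOX state and between weeks were added after the data were seen. Of the columns, 0 had no sample. A result within the list of ubiquitin and shuttle genes is not reported here.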

Additional observations from a re-analysis of the deposited data

Results flagged for a closer look

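Among 210 groups of 4 values (the members named by rule, in RPFs and total RNA), 16 had a replicate far from the other 3, with a gap to the nearest value that passed Dixon's test, where chance gives about 1 in 20.
In RPFs, PSMB7 stood low in replicate 1 of uninduced shCTRL (10.99, others 11.13 to 11.16), in replicate 2 of induced shCTRL (10.80) and in replicate 1 of uninduced shEIF2B4 (10.71). PSMD5 stood high in replicate 4 of induced shCTRL (9.23, others 8.77 to 8.81) and low in replicate 1 of uninduced shEIF2B4 (8.67, others 9.33 to 9.46). PSMD9 stood low in replicate 1 of induced shEIF2B4 (7.63) and PSMG4 in replicate 2 of induced shEIF2B1 (7.88).
In total RNA, replicate 2 stood low for PSMA3 in induced shEIF2B1 (10.12, others 10.51 to 10.58), for PSMB6 in induced shCTRL (9.60) and for PSMC6 in induced shEIF2B4 (10.30). Replicate 1 of uninduced shEIF2B4 stood low for PSMD6 (9.18, others 9.46 to 9.49) and PSMD7 (9.52, others 9.85 to 9.89). PSMB9 stood high in replicate 3 of induced shEIF2B1 (6.98, others 6.76 to 6.80). In induced shEIF2B4, replicate 4 stood high for PSMA6 (10.60) and low for PSMG4 (8.34, others both 8.37), and replicate 1 stood high for PSMB9 (6.78, others 6.77), in groups whose whole range was small.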

How the results depend on the processing

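Members called in RPFs after shEIF2B1 (16) numbered 0 without the replicate block, 5 with the coding GC trend removed, 3 for the induced line against induced shCTRL (an alternative added after the data were seen) and 30 without the shCTRL correction, and 10 to 17 with 1 replicate left out. Over all genes, 1529 to 2714 of 11145 were called in RPFs with 1 replicate left out. For TE after shEIF2B1 (6) the counts were 0 without the block, 0 with the GC trend removed, 0 against induced shCTRL, 1 with all 24 lysates in one fit, 2 at an adjusted p under 0.05, 11 without the shCTRL correction and 0 to 9 with 1 replicate left out. Over all genes, TE gave 44 of 10836 with all 24 lysates, 241 at 0.05, 0 without the block and 0.369% against induced shCTRL. For RPFs after shEIF2B4 (1) the member counts were 0 without the block, with the GC trend removed, against induced shCTRL and at 0.05, 2 with all 24 lysates, 15 without the shCTRL correction and 0 to 5 with 1 replicate left out. Over all genes, 490 of 11145 were called in RPFs with all 24 lysates, 138 at 0.05 and 203 of 10848 with the GC trend removed. Total RNA after shEIF2B1 (0) gave 2 with all 24 lysates (592 of 11947 genes) and 3 against induced shCTRL (14.9% of all genes). It gave 27 without the shCTRL correction and 0 to 1 with 1 replicate left out. After shEIF2B4, total RNA (0) gave 2 against induced shCTRL (25.1% of all genes) and 18 without the correction. TE after shEIF2B4 (0) gave 3 without the correction and 0 to 7 with 1 replicate left out. On shCTRL induction, RPFs (1) and total RNA (1) gave 0 without the block, without the variance trend and at 0.05, total RNA 0 with the GC trend removed, and with 1 replicate left out RPFs gave 0 to 15 and total RNA 0 to 25, the highest counts being those without replicate 1. Over all genes, RPFs and total RNA gave 0 and 9 without the block, 931 and 395 without the variance trend, and 274 and 41 at 0.05. Dropping the shCTRL correction also raised the calls over the whole table. In RPFs, 5507 of 11145 genes then passed for shEIF2B1 and 2655 for shEIF2B4. In total RNA the counts were 4104 and 4112 of 11947, and in TE 1857 and 673 of 10836. The core minus regulatory difference in RPFs after shEIF2B4 (−0.04) was 0.068 with the immunosubunits in the core and 0.018 without the shCTRL correction. Leaving out the 3 base chaperones kept all 6 core minus regulatory differences within their spread between weeks. The cause of these shifts was not tested. Between the knockdowns 0 members were called under every alternative run. For single genes named by rule, 1645 values kept their side of the threshold, 65 lost a call and 62 gained one. Most of the 1645 had no call in the main fit, so they had none to lose. A change of sign with no call in either fit was counted as kept. The 1645 are therefore no measure of how stable the calls were. With 4 replicates and SEs of 0.1 to 0.3, responses below about 0.4 were seldom called.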
